A study of Mus musculus with 2 samples.

Results

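Toll-like receptors and the proteins that work with them are described here in immune cells of the injured neonatal mouse heart. The 10 genes are those named on a list (*Tlr1*, *Tlr2*, *Tlr4*, *Tlr7*, *Tlr8*, *Tlr9*, *Tlr13*, *Myd88*, *Cd14* and *Ly96*), looked up by symbol among the 32285 genes of both count tables, and all 10 were present. Live cells (7-AAD-) carrying CD45 were sorted from hearts collected at an age of 9 days, 7 days after myocardial infarction (MI) on postnatal day 2. Cells entered 2 libraries of 10x Genomics 5′ type, 1 from the pooled cells of 5 WT hearts and 1 from the pooled cells of 5 hearts of *Lyve1*-/- mice, a global knockout (KO) line. Both groups had the injury, no uninjured library was analysed here, and the strain of the WT pool is not given in the sources used here. With 1 library per genotype there is no test of a genotype difference. Each value is given for both libraries, with an interval that covers counting error only and not the spread between hearts.

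Toll-like receptors recognise microbial products and some molecules released by damaged cells. TLR1, TLR2 and TLR4 act at the cell surface, where TLR2 pairs with TLR1 or TLR6 to bind bacterial lipopeptides and TLR4 binds lipopolysaccharide with the help of CD14 and MD-2, the product of *Ly96*. TLR7, TLR8, TLR9 and TLR13 act in endosomes on nucleic acids, and MYD88 is the adaptor that links these receptors to kinases and to NF-kB and IRF transcription factors. Macrophages, monocytes and neutrophils, which gather in the infarcted heart, are known for these receptors.

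Positions are those of the GENCODE M21 annotation of GRCm38. *Tlr7* (chrX:167304929-167330558, minus strand), *Tlr8* (chrX:167242696-167264329, minus strand) and *Tlr13* (chrX:106143204-106160493, plus strand) are X-linked, and *Tlr7* and *Tlr8* are separated by 40599 bases. *Tlr1* (chr5:64924679-64933563) and *Tlr2* (chr3:83836272-83841767) are on the minus strand, as is *Myd88* (chr9:119335934-119341411). *Tlr4* (chr4:66827584-66930284), *Tlr9* (chr9:106222598-106226883) and *Ly96* (chr1:16688051-16709611) are on the plus strand. *Lyve1* is on chromosome 7, where none of the 10 genes lies. *Tlr1* shares 454 of the 3332 windows of 50 bases of its transcripts with its neighbour *Tlr6*, and 15.4% of its windows with any other gene, so reads from these stretches cannot be told apart. *Tlr4* shares 1 window of 5551, and the other 8 genes share none. *Myd88* overlaps another gene on its own strand, *Slc22a14*, which had 317 UMIs.

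RefSeq promoter windows (GRCm38.p6), from 250 bases before to 50 after the annotated start, were searched for 6 of the 10 genes. Those of *Tlr2*, *Tlr9*, *Tlr13* and *Myd88* are shown because these genes have the contrasting patterns described below, *Tlr2* and *Tlr13* in myeloid classes, *Tlr9* also in B cells and *Myd88* in every class. Capitals mark AGGAAG (bound by PU.1 and other ETS factors), TTGCNNAA (C/EBP), GGGANNTTC (NF-kB) or GAAANNGAA (IRF factors) on either strand, and each window is read 5′ to 3′ in the direction of the gene.
*Tlr2* (chr3:83841559-83841858, minus strand): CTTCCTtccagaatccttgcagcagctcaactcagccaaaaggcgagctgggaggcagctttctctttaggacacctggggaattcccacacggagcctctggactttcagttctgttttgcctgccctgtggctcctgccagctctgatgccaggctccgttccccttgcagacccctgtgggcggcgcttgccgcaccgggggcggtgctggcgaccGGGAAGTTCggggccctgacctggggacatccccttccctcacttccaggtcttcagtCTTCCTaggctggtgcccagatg
*Tlr9* (chr9:106222348-106222647, plus strand): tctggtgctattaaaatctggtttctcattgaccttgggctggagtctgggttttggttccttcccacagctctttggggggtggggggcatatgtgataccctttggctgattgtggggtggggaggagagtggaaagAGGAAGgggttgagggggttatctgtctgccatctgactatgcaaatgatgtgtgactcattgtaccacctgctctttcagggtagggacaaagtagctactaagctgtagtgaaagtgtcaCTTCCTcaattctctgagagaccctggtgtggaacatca
*Tlr13* (chrX:106143025-106143324, plus strand): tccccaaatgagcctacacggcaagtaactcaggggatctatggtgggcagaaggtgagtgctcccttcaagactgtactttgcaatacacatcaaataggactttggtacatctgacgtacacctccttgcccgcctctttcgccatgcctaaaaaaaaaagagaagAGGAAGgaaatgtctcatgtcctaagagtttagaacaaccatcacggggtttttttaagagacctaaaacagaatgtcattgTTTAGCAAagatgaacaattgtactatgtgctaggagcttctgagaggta
*Myd88* (chr9:119339969-119340268, minus strand): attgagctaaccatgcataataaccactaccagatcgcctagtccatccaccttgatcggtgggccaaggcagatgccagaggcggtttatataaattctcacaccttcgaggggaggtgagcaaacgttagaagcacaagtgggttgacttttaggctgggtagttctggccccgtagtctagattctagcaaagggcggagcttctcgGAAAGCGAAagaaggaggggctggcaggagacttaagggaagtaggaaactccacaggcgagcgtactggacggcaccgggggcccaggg
The *Tlr2* window holds AGGAAG at 2 places and GGGANNTTC at 1, from 31 bases before the start. *Tlr9* holds AGGAAG at 2 places, *Tlr13* holds AGGAAG and TTGCNNAA once each, and *Myd88* holds GAAANNGAA once, from 40 bases before the start. The *Myd88* window lies inside the GENCODE gene. Those of *Tlr2* and *Tlr13* overlap their GENCODE genes by more than the 50 bases after the RefSeq start, from which the distances are taken. The GGGANNTTC match of *Tlr2* lies inside the GENCODE gene. Of all 32851 promoter windows, 35.4% hold AGGAAG, 10.8% TTGCNNAA, 3.94% GGGANNTTC and 8.56% GAAANNGAA. No matches overlap in these windows. A match is a description of the letters, not of binding.

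The WT library held 4187 kept cells with a median of 11106 unique molecular identifiers (UMIs, each marking 1 RNA molecule) and the KO library 3391 cells with a median of 12856. The libraries shared 9 barcode sequences, of which 3 were kept in both. Cells were clustered without the 10 genes and named "like" a cell type by marker lists, which gave 9 classes with at least 50 cells in each library, 2 of them the classical and non-classical parts of the monocyte-like cells. Unnamed clusters held 1166 WT and 813 KO cells, with medians of 1637 and 1148 UMIs. Levels are given in CPM, the UMIs of a gene relative to all UMIs of the same cells, where 1 CPM is 0.0001% of the UMIs. As a check of the labels, *Lyve1* was at 247 CPM in the WT and 13.1 CPM in the KO library over all kept cells, and at 518 and 21.5 CPM in CCR2- macrophage-like cells. In 7 of the 9 classes its direction was the opposite, as in B cell-like cells, with 0.327 CPM in the WT and 5.37 CPM in the KO library, and in NK cell and innate lymphoid cell-like cells, with 1.30 and 23.3 CPM. Which part of *Lyve1* the KO allele lacks is not given in the sources used here. *Ccr2* was at 42.9 and 69.5 CPM in CCR2- and 629 and 749.9 CPM in CCR2+ macrophage-like cells. It is on the marker list that names the CCR2+ class, so this contrast is no separate check. *Ptprc*, which encodes CD45, was between 374 and 2188 CPM over the 9 classes.

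**Figure D1:**
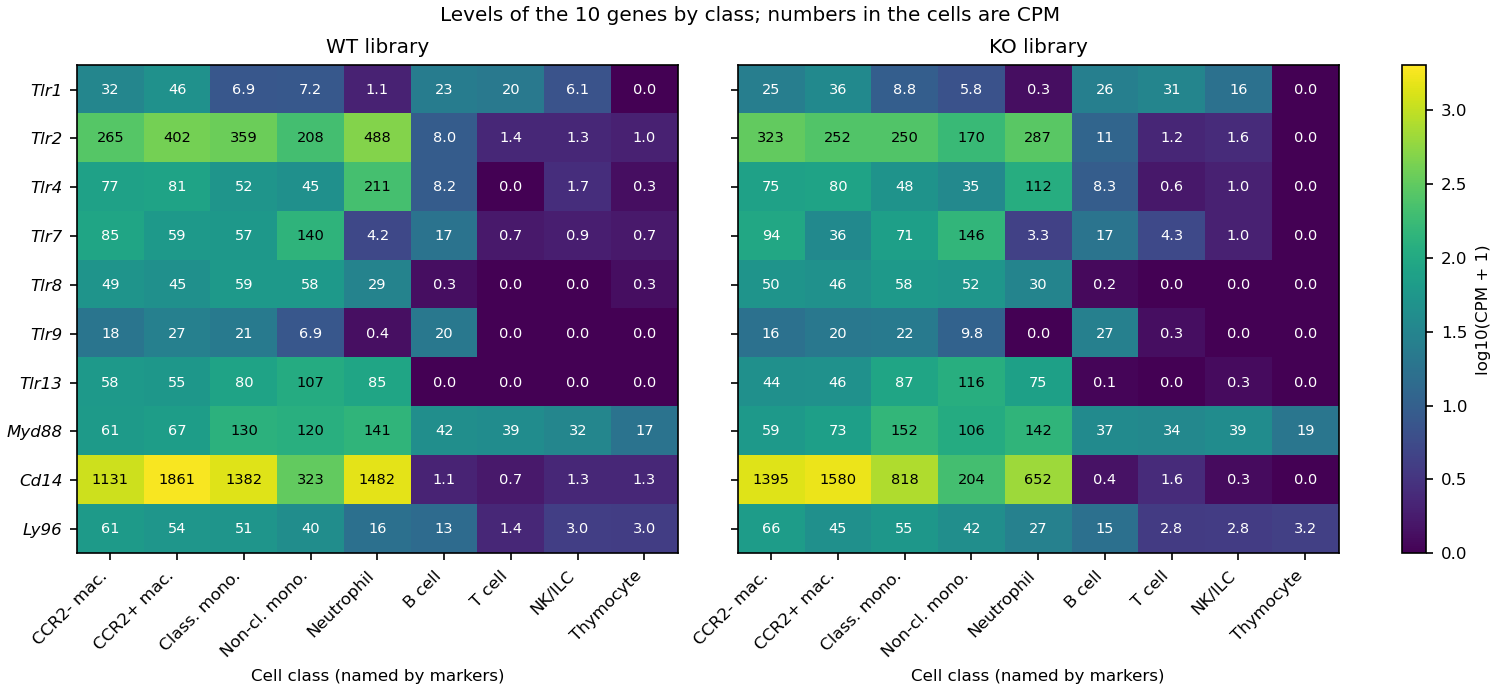
Level of each of the 10 genes (rows) in the 9 cell classes (columns) of the WT and KO library, as log10(CPM + 1) in colour with the CPM written in each cell. *Cd14* and *Tlr2* are high in the 5 myeloid classes of both libraries, and *Tlr1* and *Myd88* extend into lymphoid classes.

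Of the surface receptors, *Tlr2* was found in all myeloid classes, *Tlr4* was highest in neutrophil-like cells, and *Tlr1* was shared between macrophage-like and lymphoid classes. *Tlr2* was at 488 CPM (95% exact Poisson interval 462 to 514) in WT neutrophil-like cells, 402 CPM in CCR2+ and 265 CPM in CCR2- macrophage-like cells, 359 CPM in classical and 208 CPM in non-classical monocyte-like cells. In the KO library the same classes were at 287, 252, 323, 249.99 and 169.99 CPM, so that CCR2- macrophage-like cells came first there. In lymphoid classes *Tlr2* did not exceed 10.9 CPM.

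*Tlr4* was at 211 CPM (195 to 229) in WT neutrophil-like cells and 112 CPM (100.01 to 124) in KO ones. CCR2+ macrophage-like cells came next, at 80.8 and 80.3 CPM, and their intervals overlapped those of CCR2- macrophage-like cells (77.0 and 75.4 CPM). Monocyte-like cells had less *Tlr4*, at 51.6 and 47.9 CPM in classical and 44.7 and 34.5 CPM in non-classical cells of WT and KO. B cell-like cells were at 8.18 and 8.28 CPM, and T cell-like cells had 0 and 2 UMIs. Neutrophil-like clusters differed in *Tlr4*. It was at 16.7 and 17.7 CPM in WT and KO cells of the cluster led by *Ngp*, and at 618 and 261 CPM in that led by *Acod1*.

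*Tlr1* was highest in CCR2+ macrophage-like cells of both libraries, at 46.2 CPM in the WT and 35.7 CPM in the KO library. CCR2- macrophage-like cells came second in WT (31.8 CPM), and T cell-like cells in KO (31.0 CPM, an interval that overlapped that of CCR2+ macrophage-like cells). B cell-like cells were at 23.4 and 25.5 CPM. In contrast, classical monocyte-like cells were at 6.89 and 8.75 CPM, non-classical ones at 7.22 and 5.83 CPM, and neutrophil-like cells had 3 UMIs in WT and 1 in KO. NK cell and innate lymphoid cell-like cells were at 6.08 and 15.8 CPM, and thymocyte-like cells had no UMI in either library. In the NK cell and innate lymphoid cell-like class, 10 T cell markers summed to 2387 CPM in WT and 2751 CPM in KO. Its own 10 markers summed to 3012 and 2734 CPM, and the part of T cell transcripts in its *Tlr1* level was not tested. Log2 ratios here and below were taken after 10 CPM was added to each side, except where an alternative is named. The added CPM makes ratios of low levels smaller in size. CCR2- macrophage-like cells, at 31.8 and 24.6 CPM in WT and KO, exceeded all monocyte-like cells, at 7.00 and 7.54 CPM. The log2 ratio was 1.30 (1.12 to 1.47) in WT and 0.98 (0.79 to 1.16) in KO. Among T cell-like clusters the level was 36.5 and 37.6 CPM in the cluster led by *Dapl1* and *Ms4a4b*, against 1.83 and 13 CPM, from 1 and 10 UMIs, in the cluster led by *Cd163l1* and the gamma delta receptor gene *Trdv4*.

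Of the endosomal receptors, *Tlr7* and *Tlr13* were highest in non-classical monocyte-like cells. *Tlr8* differed less between macrophage-like and monocyte-like classes, and *Tlr9* was shared with B cell-like cells. *Tlr7*, which senses single-stranded RNA, was at 140.4 CPM (127 to 155) in WT and 146 CPM (135 to 158) in KO non-classical monocyte-like cells, against 56.5 and 70.8 CPM in classical ones. The log2 ratio of non-classical to classical cells was 1.18 (0.98 to 1.37) in WT and 0.95 (0.78 to 1.11) in KO. CCR2- macrophage-like cells came second, at 84.8 and 94.1 CPM, and CCR2+ macrophage-like cells had 58.5 CPM in the WT and 35.6 CPM in the KO library. Neutrophil-like cells had 4.24 and 3.3 CPM and B cell-like cells 17.0 and 17.4 CPM. The few plasmacytoid dendritic cell-like cells (16 and 12) had 90.1 CPM (58.9 to 132) in WT and 89.2 CPM (55.9 to 135) in KO. These levels rest on 26 and 22 UMIs, of which 1 cell in each library held 11 and 10.

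*Tlr13*, the mouse receptor for bacterial ribosomal RNA, was at 107 CPM (95 to 119.7) in WT and 116 CPM (106 to 126) in KO non-classical monocyte-like cells. It was also present in neutrophil-like cells, at 85.4 CPM in the WT and 74.6 CPM in the KO library. Classical monocyte-like cells had 80.1 and 87.0 CPM, CCR2- macrophage-like cells 57.8 and 44.4 CPM and CCR2+ macrophage-like cells 55.2 and 46.2 CPM. In WT B cell-like cells no UMI of *Tlr13* was seen, and a count of 0, taken as at most 3 counts, allows up to 0.491 CPM there, while 1 UMI was seen in KO. *Tlr8*, the neighbour of *Tlr7*, was between 44.9 and 59.3 CPM in the 4 macrophage-like and monocyte-like classes of both libraries. Neighbours in the order of these classes had overlapping intervals, but the highest and lowest did not. Classical monocyte-like cells were highest, at 59.3 CPM (53.0 to 66.0) in WT and 58.5 CPM (52.5 to 64.9) in KO. CCR2+ macrophage-like cells were lowest, at 44.9 CPM (39.1 to 51.3) and 45.8 CPM (40.4 to 51.7). Neutrophil-like cells had less *Tlr8*, at 28.6 CPM in the WT and 29.7 CPM in the KO library.

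*Tlr9*, the receptor for unmethylated CpG DNA, was spread over several classes. In WT it was at 26.6 CPM in CCR2+ macrophage-like, 21.0 CPM in classical monocyte-like, 20.1 CPM in B cell-like and 18.2 CPM in CCR2- macrophage-like cells, each overlapping the next. In KO the order was B cell-like (26.8 CPM), classical monocyte-like (21.8 CPM), CCR2+ macrophage-like (20.1 CPM) and CCR2- macrophage-like cells (15.9 CPM). Each again overlapped the next, but the first and last of each order did not overlap. Their intervals were 22.2 to 31.7 and 16.5 to 19.9 CPM in WT, and 23.5 to 30.4 and 13.6 to 18.4 CPM in KO. Non-classical monocyte-like cells had 6.86 and 9.79 CPM. Neutrophil-like cells gave 1 UMI of *Tlr9* in WT and 0 in KO, where a count of 0 allows up to 0.990 CPM by the same limit of 3 counts. In plasmacytoid dendritic cell-like cells it was at 83.2 CPM (53.3 to 124) in WT and 36.5 CPM (16.7 to 69.2) in KO, from 24 and 9 UMIs.

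Of the co-receptors, *Cd14* differed widely between myeloid classes, whereas *Ly96* was more even in macrophage-like and monocyte-like cells and low in neutrophil-like cells. *Cd14* (chr18:36725067-36726798, minus strand) was highest in CCR2+ macrophage-like cells of both libraries, with 1861 CPM (1823 to 1900.3) in WT against 1580.5 CPM (1548 to 1613) in KO. CCR2- macrophage-like cells had 1131 and 1395 CPM, classical monocyte-like cells 1382 and 818 CPM, neutrophil-like cells 1482 and 652 CPM and non-classical monocyte-like cells 323 and 204 CPM. The log2 ratio of non-classical to classical cells was -2.06 (-2.16 to -1.97) in WT and -1.95 (-2.05 to -1.85) in KO. T cell-like cells had 1 UMI of *Cd14* in WT and 5 in KO.

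*Ly96* was highest in CCR2- macrophage-like cells, at 61.2 CPM in the WT and 65.7 CPM in the KO library. CCR2+ macrophage-like cells had 53.5 and 44.8 CPM, classical monocyte-like cells 51.1 and 54.7 CPM and non-classical ones 40.1 and 42 CPM. In neutrophil-like cells, the class with the most *Tlr4*, it was at 15.5 CPM (11.3 to 20.8) in WT and 27.1 CPM (21.5 to 33.6) in KO, beside 13.4 and 15.3 CPM in B cell-like cells.

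*Myd88* was measured in every class. Neutrophil-like cells (141 and 142 CPM) and classical monocyte-like cells (129.8 and 152 CPM) were the highest, with overlapping intervals. Non-classical monocyte-like cells had 119.8 and 106 CPM, CCR2+ macrophage-like cells 66.7 and 72.9 CPM and CCR2- macrophage-like cells 61.1 and 59.2 CPM. The log2 ratio of CCR2- macrophage-like to monocyte-like cells was -0.94 (-1.04 to -0.84) in WT and -1.05 (-1.17 to -0.93) in KO. Lymphoid classes ranged from 17.3 CPM in WT thymocyte-like cells to 41.7 CPM in WT B cell-like cells. For 7 of the 10 genes the class of highest level was the same in both libraries, and the exceptions were *Tlr2*, *Tlr9* and *Myd88*. Among the 7, intervals of the highest class and the next overlapped for *Tlr8*, *Tlr13* and *Ly96* in WT and for *Tlr1* and *Tlr8* in KO. The same count over all genes was not made.

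Shares of cells with a UMI were taken after each cell was thinned to 2000 UMIs. *Cd14* was found in 63.7% (60.7 to 66.7) of WT and 68.6% (63.9 to 73.0) of KO CCR2- macrophage-like cells, with 95% Clopper-Pearson intervals, and in 40.5% and 27.7% of neutrophil-like cells. In T cell-like cells, which should lack the gene, it was found in 0.637% of 157 WT cells and in 0 of 263 KO cells, which by the limit of 3 counts allows a share of up to 1.14%. *Tlr2* was found in 33.3% of WT and 40.0% of KO CCR2- macrophage-like cells and in none of the thinned T cell-like cells of either library. *Tlr4* was found in 26.9% (22.3 to 31.9) of WT and 19.0% (14.9 to 23.7) of KO neutrophil-like cells, and *Tlr7* in 0.289% and 0.312% of them. Without thinning, *Cd14* was found in 95.3% and 95% of CCR2- macrophage-like, 54.1% and 44.0% of neutrophil-like and 0.568% and 1.82% of T cell-like cells. The median depths of these classes were 23783 and 24944, 7656 and 7961.5, and 6891 and 11494.5 UMIs, and thinning left out 1 and 3, 5 and 15, and 19 and 11 cells of WT and KO.

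The KO and WT libraries were compared in 6 classes, with the classical and non-classical monocyte-like cells joined. A gene was counted where it had at least 100 UMIs in both libraries together, and the measure was the log2 ratio of KO to WT after 10 CPM was added to each. Of 60 pairs of a gene and a class, 46 were counted, 23 of them above 0, and 39 were under 0.5 in size. The 10th and 90th percentiles of all genes were also under 0.5 in size in each class. They were -0.21 and 0.12 in CCR2- macrophage-like, -0.37 and 0.30 in neutrophil-like, and -0.44 and 0.29 in T cell-like cells. The count of 39 therefore does not mark the 10 genes as changing less than others. The share of all genes above 0 was not computed, so nothing is concluded from the count of 23. In neutrophil-like cells 1 of the 7 genes counted, *Cd14*, passed a log2 ratio of 1 in size, lower in KO, where 0.925% of all genes passed. In the other classes none of the 10 genes passed, and the share of all genes past the same fold was 0.204% in CCR2- macrophage-like, 0.483% in CCR2+ macrophage-like, 0.214% in monocyte-like, 0.653% in B cell-like and 1.44% in T cell-like cells, with 10, 10, 10, 7 and 2 of the 10 genes counted. The median ratios of the genes counted and of all genes were -0.17 and -0.01 in neutrophil-like, -0.22 and -0.03 in CCR2+ macrophage-like, -0.01 and -0.05 in CCR2- macrophage-like, 0.04 and 0.01 in monocyte-like, 0.09 and -0.01 in B cell-like and 0.13 and -0.05 in T cell-like cells.

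**Figure D2:**
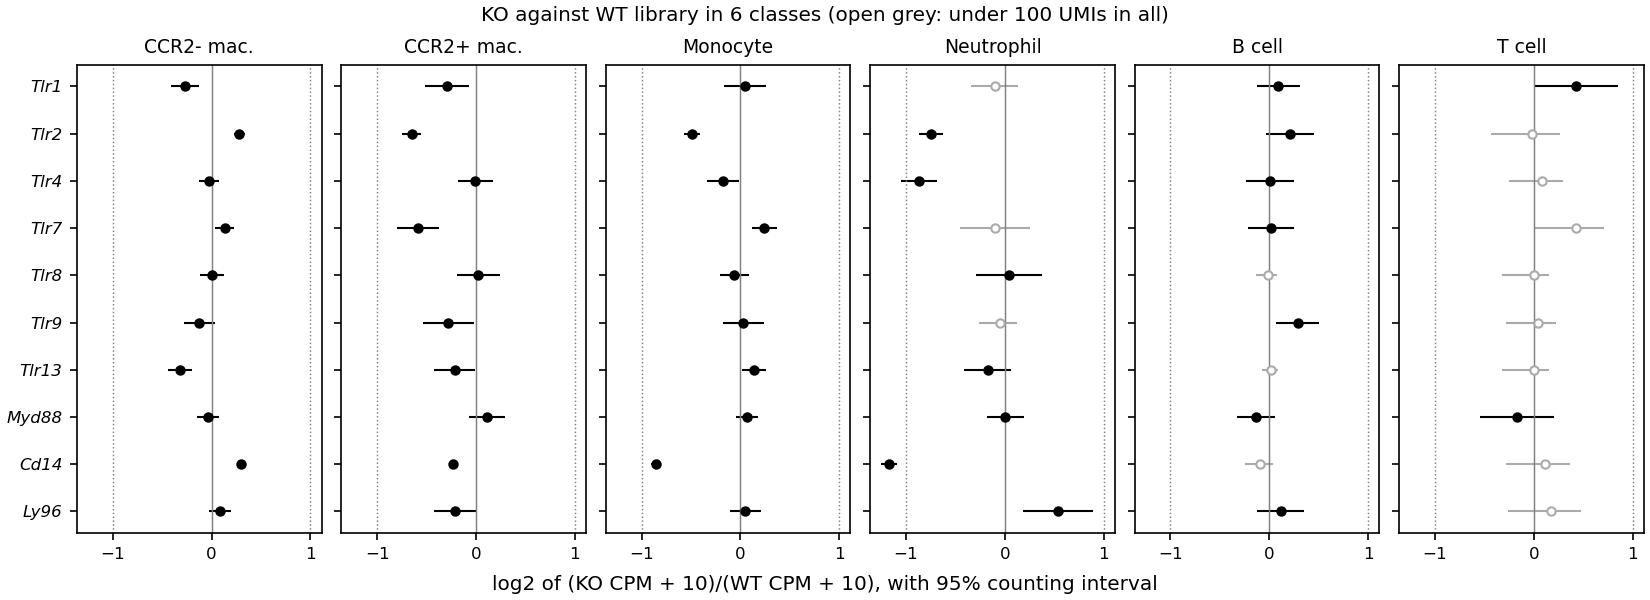
Log2 ratio of KO to WT, with 10 CPM added, for the 10 genes in 6 classes, with 95% counting intervals. Filled points have at least 100 UMIs in both libraries together and dotted lines mark 1 and -1. *Cd14* in neutrophil-like cells, at -1.17, is the only filled point past a dotted line.

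In neutrophil-like cells *Cd14* gave 4198 UMIs in 351 WT cells and 1975 UMIs in 336 KO cells, a log2 ratio of -1.17 (-1.25 to -1.10). *Tlr4* had a ratio of -0.86 (-1.05 to -0.68), *Tlr2* of -0.75 (-0.87 to -0.63) and *Ly96* of 0.54 (0.18 to 0.89), beside 0.00 for *Myd88*, 0.04 for *Tlr8* and -0.17 for *Tlr13*. The value for *Cd14* differed between clusters. The cluster led by *Acod1*, *Il1rn* and *Csf1* held 22.5% of the WT cells (18.2 to 27.2) and 12.2% of the KO cells (8.90 to 16.2), and 73.9% and 43.3% of their *Cd14* UMIs. Within it *Cd14* was at 6012 and 3183 CPM in WT and KO (-0.92, -1.03 to -0.81), *Tlr4* at 618 and 261 CPM and *Tlr2* at 793 and 715 CPM. In the larger cluster, led by *Stfa1* and *Asprv1*, *Cd14* was at 515 and 442 CPM (-0.22, -0.34 to -0.09), *Tlr4* at 148 and 123 CPM (-0.25) and *Tlr2* at 482 and 284 CPM (-0.74, -0.89 to -0.60). In the cluster led by the granule genes *Ngp* and *Camp*, *Cd14* was at 315 and 294 CPM and *Tlr4* at 16.7 and 17.7 CPM. Without the *Acod1* cluster, an alternative chosen after seeing the data, the class ratio was -0.22 for *Cd14*, -0.29 for *Tlr4* and -0.75 for *Tlr2*.

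Male and female cells, called by Y-linked transcripts and *Xist*, come from different hearts of a pool. Among neutrophil-like cells *Cd14* was at 1975 CPM in 148 male WT cells and 470.2 CPM in 110 male KO cells, a log2 ratio of -2.05 (-2.18 to -1.91). In female cells the direction was the opposite, with 549.8 CPM in 26 WT cells and 1150.1 CPM in 35 KO cells (1.05, 0.79 to 1.32). The *Acod1* cluster held 40 of the male and 4 of the female WT cells, and 13 of the male and 6 of the female KO cells, so few female cells lie in the cluster with the most *Cd14*. Cells with neither transcript, 175 in WT and 189 in KO, were the largest group and had *Cd14* at 1187 and 638 CPM. *Tlr4* had a ratio of -1.60 (-1.92 to -1.29) in male and 0.28 (-0.35 to 0.92) in female cells. *Tlr2* had the same sign in both, at -0.54 (-0.72 to -0.35) and -0.97 (-1.35 to -0.58). The summed level of 10 macrophage markers in neutrophil-like cells was 475 CPM in the WT and 395 CPM in the KO library, with 0 and 1 of them at 0, against 18154 and 14816 CPM in CCR2+ macrophage-like cells. Their part in the *Cd14* difference was not tested.

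In monocyte-like cells *Cd14* was at 1028 CPM in the WT and 563 CPM in the KO library, a ratio of -0.86 (-0.90 to -0.81), and *Tlr2* at 308 and 217 CPM, a ratio of -0.49 (-0.57 to -0.41). The ratios of *Cd14* and *Tlr2* were -0.75 and -0.50 in classical and -0.64 and -0.28 in non-classical cells, so the sign was the same in both. In male cells they were -0.62 and -0.57, and in female cells -1.17 and -0.38. *Tlr7* was at 84.6 and 102 CPM (0.24, 0.12 to 0.37). Its ratio was 0.28 (0.10 to 0.46) in classical and 0.05 (-0.12 to 0.22) in non-classical cells. Non-classical cells, with more *Tlr7* and less *Cd14* than classical ones, were 242 of 482 WT and 299 of 538 KO monocyte-like cells. The part of this make-up in the ratios of the joined class was not tested. The summed level of 10 neutrophil markers in monocyte-like cells was 1224 CPM in the WT and 602 CPM in the KO library, with none of them at 0, and its part in these results was not tested.

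In CCR2+ macrophage-like cells *Tlr2* (-0.65, -0.75 to -0.55) and *Tlr7* (-0.59, -0.80 to -0.37) had the largest ratios of the 10 genes, both below 0. *Tlr2* was at 316 CPM in male and 517 CPM in female WT cells, and at 260.3 and 239 CPM in KO cells, so the ratio was -0.27 (-0.40 to -0.14) in male and -1.08 (-1.24 to -0.93) in female cells. *Tlr7* was at 46.3 and 77.3 CPM in WT and 35.1 and 37.6 CPM in KO.

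In CCR2- macrophage-like cells *Tlr2* (0.28, 0.22 to 0.34) and *Cd14* (0.30, 0.27 to 0.33) were above 0, and *Tlr1* (-0.27, -0.41 to -0.13) and *Tlr13* (-0.32, -0.44 to -0.20) below it. These 4 genes kept their signs in male and in female cells. The make-up of the class differed between the libraries, as the cluster led by *Ccl8* held 188 of 1021 WT and 129 of 423 KO cells. Within that cluster the ratio of *Cd14* was below 0 (-0.07, -0.11 to -0.03), that of *Tlr2* above it (0.23, 0.14 to 0.33) and that of *Tlr13* below it (-0.48, -0.73 to -0.23). In B cell-like cells *Tlr9* had a ratio of 0.29 (0.07 to 0.51), and in T cell-like cells *Tlr1*, at 20.5 and 31.0 CPM, had one of 0.43 (0.00 to 0.85). The *Dapl1* cluster, with the most *Tlr1* of those given above, held 78 of 176 WT and 174 of 274 KO T cell-like cells, and within it the ratio was 0.03. Over the 6 classes, 29 of 44 pairs with enough UMIs had the same sign of the KO to WT ratio in male and female cells. The share of all genes with the same sign was not computed, so nothing is concluded from this count.

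**Figure D3:**
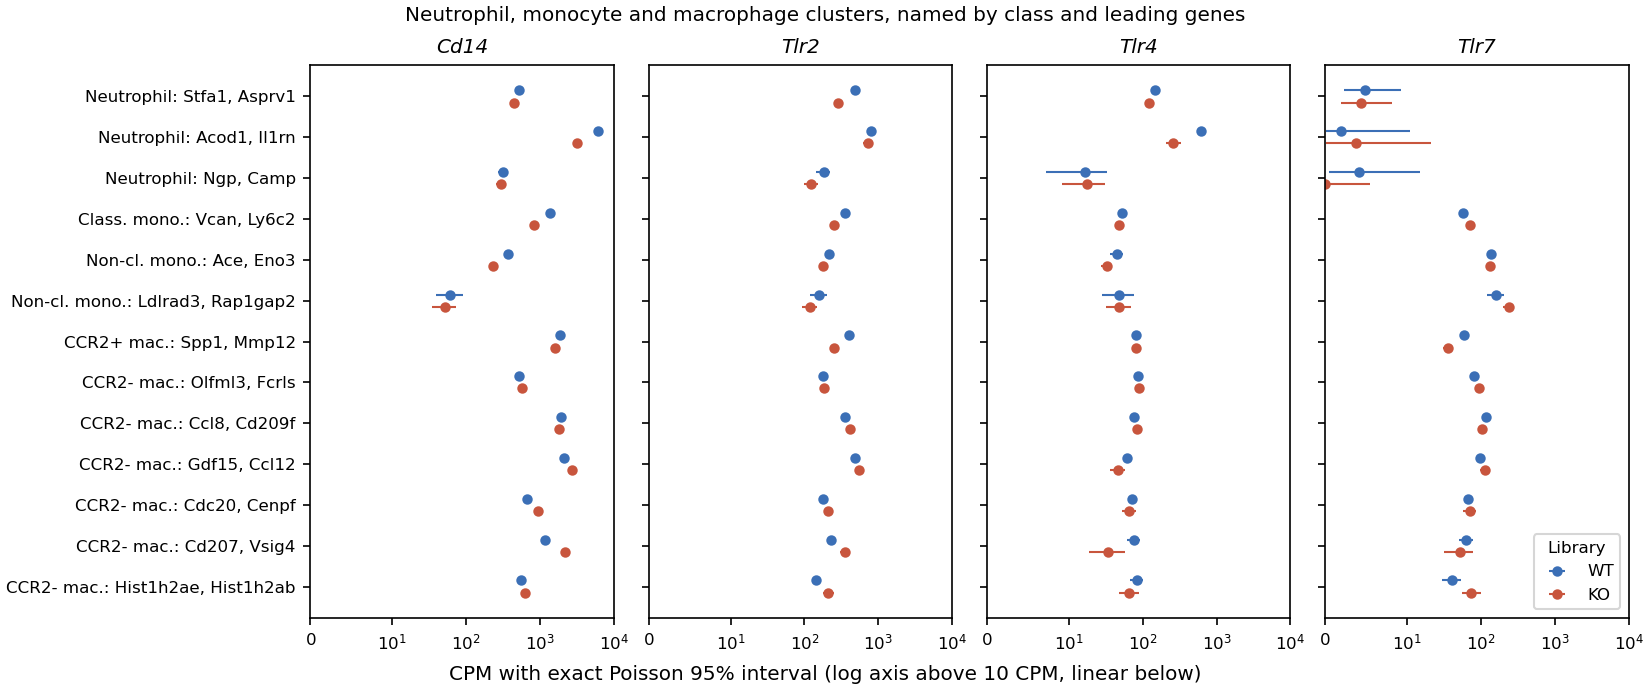
Level of *Cd14*, *Tlr2*, *Tlr4* and *Tlr7* (CPM, log axis above 10 and linear below, with exact Poisson 95% intervals) in 13 clusters of neutrophil-like, monocyte-like and macrophage-like cells of the WT (blue) and KO (red) library, each cluster named by class and leading genes. *Cd14* reaches 6012 and 3183 CPM in WT and KO cells of the *Acod1* cluster, and *Tlr7* is below 5 CPM in the neutrophil clusters.

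Within CCR2- macrophage-like cells *Cd14* and *Tlr2* differed between clusters in both libraries. The cluster led by *Olfml3* and *Fcrls* (416 WT and 156 KO cells) had *Cd14* at 516 and 562 CPM and *Tlr2* at 176 and 182 CPM. The cluster led by *Ccl8*, *Cd209f* and *Lyve1* (188 WT and 129 KO cells) had *Cd14* at 1909 and 1817 CPM and *Tlr2* at 349 and 411 CPM. The cluster led by *Gdf15* and *Ccl12* (171 WT and 64 KO cells) had *Cd14* at 2141 and 2709.8 CPM and *Tlr2* at 491 and 556 CPM, the highest of the monocyte-like and macrophage-like clusters. *Tlr4* was at 86.7 and 88.5, 76.6 and 84.6, and 61.6 and 45.5 CPM in these 3 clusters. *Tlr13* was lower in the *Ccl8* cluster (46.6 and 30.7 CPM) than in the *Olfml3* cluster (64.4 and 54.4 CPM). The cluster led by *Cd207* and *Vsig4* (73 WT and 18 KO cells) had *Cd14* at 1158 and 2166 CPM.

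Among the unnamed clusters, the cells led by *Saa3*, *Prg4* and *Marco* (56 WT and 50 KO cells) had *Cd14* at 1956 and 2115 CPM, *Tlr1* at 11.1 and 4.49 CPM and *Tlr9* at 1.07 and 0.345 CPM, the last from 3 and 1 UMIs. Cells led by *Cd209a* and *Ccl17* (35 WT and 34 KO cells) had little *Tlr4* (1.65 and 11 CPM) and *Tlr7* (1.65 and 4.40 CPM), and *Cd14* at 244 and 248 CPM. Those led by *Gm26917* and *Plxna4* (160 WT and 82 KO cells) had *Tlr4* at 145 and 137 CPM, more than any named monocyte-like or macrophage-like cluster. In the cluster of non-classical monocyte-like cells led by *Ldlrad3* (66 WT and 88 KO cells), *Tlr7* was at 157 and 237 CPM, the most of the named monocyte-like and macrophage-like clusters, and *Cd14* at 61.1 and 51.1 CPM, the least of them. The *Gm26917* and *Ldlrad3* clusters were shallow, with medians of 5665.5 and 4579.5 UMIs per cell. The medians of the other named monocyte-like and macrophage-like clusters were 15542 to 32099 UMIs. The part of depth in these levels was not tested.

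*Tlr7*, *Tlr8* and *Tlr13* are X-linked, so these genes were also compared between male and female cells. Cells with a Y-linked transcript and no *Xist* made up 47.3% of WT and 42.3% of KO kept cells, and cells with *Xist* and no Y-linked transcript 24.8% and 29.02%. *Tlr8* was at 58.9 CPM in male and 60.5 CPM in female WT monocyte-like cells. With 10 CPM added to each, the log2 ratio of female to male was 0.03 (-0.21 to 0.27). In CCR2- macrophage-like cells the ratio of *Tlr8* was below 0 in both libraries, in WT (-0.20, -0.35 to -0.05) and in KO (-0.09, -0.30 to 0.11). *Tlr7* was at 86.0 and 87.5 CPM in male and female WT monocyte-like cells, and at 96.5 and 108 CPM in KO. In CCR2- macrophage-like cells *Tlr7* was at 84.1 CPM in female against 85.1 CPM in male WT cells (-0.02, -0.14 to 0.10), and in KO it was lower in female cells, at 86.7 against 102 CPM (-0.22, -0.38 to -0.05). *Tlr13* was higher in female CCR2+ macrophage-like cells of both libraries, at 74.3 against 37.4 CPM in WT (0.83, 0.52 to 1.14) and 63.4 against 39.8 CPM in KO (0.56, 0.26 to 0.85). In CCR2- macrophage-like cells *Tlr13* was at 72.4 against 51.2 CPM in WT (0.43, 0.29 to 0.56) and 45.9 against 43.7 CPM in KO (0.06, -0.16 to 0.27). Over 10 pairs of an X-linked gene and a class, female cells were higher in 8 in WT and 8 in KO, and over 27 pairs of an autosomal gene and a class in 16 and 11. These counts take the sign only, intervals of some of the ratios include 0, as above, and the classes share the same hearts. The shares over all X-linked genes and over all genes were not computed, so nothing is concluded from these counts. Sex and heart of origin cannot be told apart here.

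**Figure D4:**
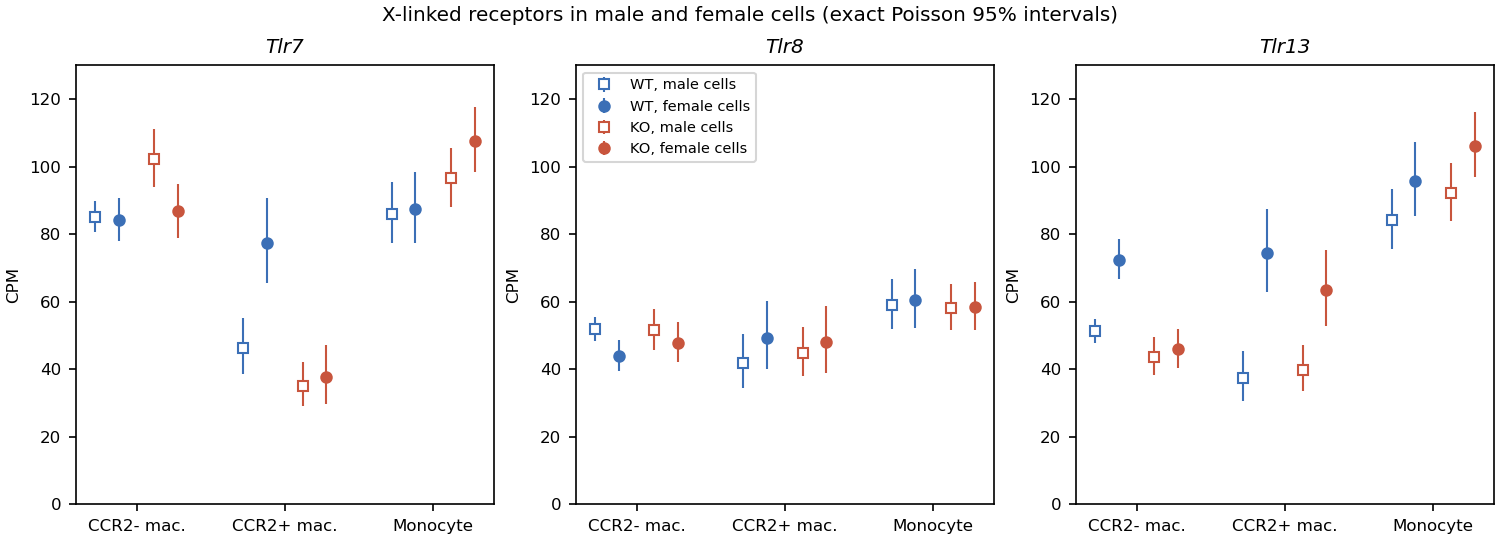
Level (CPM, with exact Poisson 95% intervals) of the 3 X-linked receptors in male (open squares) and female (filled circles) cells of the WT (blue) and KO (red) library, in CCR2- and CCR2+ macrophage-like and monocyte-like cells. *Tlr13* in CCR2+ macrophage-like cells is higher in female cells of both libraries, and *Tlr7* there is at 77.3 CPM in female and 46.3 CPM in male WT cells.

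Pairs of genes whose products act together were also sought in the same cells. For each pair given here the product of the single shares lay inside the counting interval of the joint share. At 5000 UMIs per cell, *Tlr4* and *Cd14* were both seen in 24.6% (22.0 to 27.4) of 998 WT and 26.6% (22.4 to 31.1) of 414 KO CCR2- macrophage-like cells, where the products are 26.5% and 27.7%. *Tlr4* and *Ly96* were both seen in 8.32% and 7.00% of them, against 8.40% and 7.27%. *Tlr1* and *Tlr2* were both seen in 16.9% (11.7 to 23.2) of WT and 9.34% (5.54 to 14.5) of KO CCR2+ macrophage-like cells, against 17.1% and 7.40%. *Tlr7* and *Tlr8* were both seen in 10.3% and 10.5% of non-classical monocyte-like cells, against 8.47% and 11.3%.

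Of the other receptors, in CCR2- macrophage-like cells *Tlr5*, which binds flagellin, was at 21.4 and 17.5 CPM in WT and KO, *Tlr3*, for double-stranded RNA, at 8.74 and 8.42 CPM, and *Tlr6*, the other partner of TLR2, at 8.27 and 9.21 CPM. *Tlr6* was at 15.5 and 13.9 CPM in neutrophil-like cells, where *Tlr1* had at most 3 UMIs in a library. *Tlr11* had at most 4 UMIs and *Tlr12* at most 32 in any of the 6 classes of a library.

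Of 54 other genes of the pathway in 5 lists, 253 pairs of a gene and a class were counted, of which 0 were past the fold higher in KO and 4 lower, 2 in neutrophil-like and 2 in T cell-like cells, where 0.925% and 1.44% of all genes were past it in either direction. In neutrophil-like cells the kinase gene *Ikbke* was at 75.5 and 26.4 CPM in WT and KO (-1.23, -1.52 to -0.94), and *Tnfaip3*, which encodes the inhibitor A20, at 247 and 108 CPM (-1.13, -1.31 to -0.95). The *Acod1* cluster held 22.5% of the WT and 12.2% of the KO neutrophil-like cells. Its part in these ratios, and in the neutrophil-like medians below, was not tested. *Ikbke* had the opposite sign in CCR2- macrophage-like cells, at 20.6 and 42.8 CPM (0.79, 0.65 to 0.92). In T cell-like cells *Pik3ap1* was at 77.0 and 20.5 CPM (-1.51) and *Socs1* at 81.1 and 30.7 CPM (-1.16). The make-up of this class differed too. The *Dapl1* cluster held 78 of 176 WT and 174 of 274 KO cells, and the *Cd163l1* cluster 52 and 51. The part of this difference in the T cell-like ratios, and in the T cell-like medians below, was not tested. The median ratios in neutrophil-like cells were -0.26 for 13 adaptors and kinases, -0.40 for 7 transcription factors, -0.41 for 9 inhibitors and -0.02 for 5 co-receptors and chaperones, beside -0.01 for all genes. Those of the same lists, in the same order, were -0.10, -0.14, -0.06 and -0.18 in CCR2+ macrophage-like cells, -0.16, -0.19, -0.33 and 0.14 in T cell-like cells and -0.13, -0.05, -0.13 and 0.08 in B cell-like cells. They were -0.02, -0.03, -0.03 and -0.03 in monocyte-like and -0.07, 0.00, 0.00 and 0.03 in CCR2- macrophage-like cells.

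Genes with the most similar levels were sought over the 9 classes of both libraries, as Pearson's r of log2(CPM + 10) among genes with at least 500 UMIs, over 18 points that share libraries. Other genes can lie close behind the 3 named for each. For *Tlr2*, r was also 0.969 with *Tlr4*, 0.960 with *Tlr8* and 0.957 with *Tlr13*, but 0.705 with *Tlr7* and 0.0574 with *Tlr1*. *Tlr2* was most like *Gm46224* (0.986), *Cd14* (0.984) and *Atp6v1e1* (0.983), and *Cd14* most like *Clec4a2* (0.997), *Gm46224* (0.989) and *App* (0.989). *Tlr4* was most like *Ptafr* (0.994), *Fam114a1* (0.976) and *C5ar1* (0.972), of which *Ptafr* and *C5ar1* encode receptors for platelet-activating factor and complement C5a. *Tlr13* was most like *Cd300a* (0.999), *Il13ra1* (0.997) and *Igsf6* (0.994), *Tlr8* like *Ltbr* (0.995), *Lyz2* (0.992) and *Ifi204* (0.988), and *Tlr7* like *Slc16a7* (0.973), *Plxnb2* (0.973) and *Cyp27a1* (0.968). *Tlr9* was most like *Ifi30* (0.985), *H2-DMa* (0.975) and *Erp29* (0.966), of which *Ifi30* and *H2-DMa* act in antigen processing. *Myd88* was most like *Stxbp2* (0.980), *Tpd52* (0.960) and *Gsdmd* (0.959), and *Ly96* like *Lamp2* (0.985), *Zeb2os* (0.983) and *Asah1* (0.978). *Tlr1* was most like *Cd93* (0.890), *Sdc4* (0.881) and *Got1* (0.854).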

How the data were processed

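The authors aligned reads of CD45+ cells to mm10 with Cell Ranger 8.0.1 and deposited filtered matrices of raw UMI counts for 1 WT and 1 KO library. No map from cells to hearts was used here. The barcodes numbered 5713 in WT and 5285 in KO. Cells with under 500 genes or over 30% mitochondrial UMIs were dropped, as were the 98 WT and 73 KO cells of highest scrublet score, a number set by the expected doublet rate because the automatic threshold marked only 1 and 4 cells. Cells were integrated and clustered in Seurat 5.3.0 (R 4.3.3, 2000 variable genes, 30 dimensions, resolution 0.8), leaving out 71 genes, among them the 10 described. Marker lists gave the class names, by a scoring rule set after the clusters and their leading genes were seen. UMIs were summed per class and library with Python 3.11.15, pandas 2.3.3, numpy 2.4.6, scipy 1.17.1 and scanpy 1.11.5. Intervals (95%) cover counting error only and treat cells of a pool as alike, so they do not measure the spread between animals. There were 67968938 UMIs in WT and 61555917 in KO. The ratio code was tested on simulated counts with counting error only, so that test does not cover spread between hearts, clusters or cells.

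Named were the 10 genes, other pathway genes past a log2 ratio of 1, the remaining receptors, the 3 genes most like each, *Lyve1*, *Ccr2* and genes leading a cluster, and outside this rule *Ptprc* and *Slc22a14*. The genes and lists were chosen with earlier results of these data known. In addition to the main settings, 14 alternatives for the ratios were planned and 1 was added, and shares of cells were also computed at 5000 UMIs and without thinning.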

Additional observations from a re-analysis of the deposited data

Results flagged for a closer look

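*Cd14* in neutrophil-like cells differed between male and female cells, since the log2 ratio of KO to WT was -2.05 in male and 1.05 in female cells, with counting intervals on opposite sides of 0. *Myd88* in B cell-like cells had the same feature, at -0.27 in male and 0.51 in female cells, from 45.2 and 35.8 CPM in male and 26.7 and 42.2 CPM in female WT and KO cells. These were 2 of 44 pairs of a gene and a class, and 3.72% of all genes in neutrophil-like and 3.61% in B cell-like cells had the same feature. Of the neutrophil-like cells 49.9% in WT and 56.2% in KO had neither transcript. Cells of the *Acod1* cluster were 40 of 148 male and 4 of 26 female WT cells, and 13 of 110 male and 6 of 35 female KO cells. Male and female cells come from different hearts of 1 pool per genotype, so the difference was not tested across animals, and sex and heart cannot be told apart.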

How the results depend on the processing

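No paired analysis was possible because each genotype had 1 library, and for the same reason no library could be left out. Of pairs of a gene and a class past the fold, 1 was lower in KO in the report, 0 with means of log-normalized values per cell, 2 in male cells only, 2 in female cells only, and 0 without the neutrophil cluster led by *Acod1*, which was chosen after seeing the data. With means of log-normalized values per cell, the measure was a difference of means, in which cells without a UMI count as 0. A size of 1 is therefore not the same fold in that setting, and its values are part of the ranges below. The number higher in KO was 0 under every alternative run. The 2 in male cells were *Cd14* and *Tlr4* in neutrophil-like cells, and those in female cells *Tlr2* in CCR2+ macrophage-like and *Cd14* in monocyte-like cells. The female-only alternative gave no neutrophil-like value, and at resolution 0.4 there were no CCR2+ macrophage-like values, since classes under 50 cells in a library were not used. The ratio of *Cd14* in female neutrophil-like cells (1.05, from 26 WT and 35 KO cells) is therefore in neither the count higher in KO nor the ranges below. Over the alternatives that gave a value, the ratio of *Cd14* in neutrophil-like cells ranged from -2.05 to -0.22, that of *Tlr4* from -1.60 to -0.28 and that of *Tlr2* from -0.77 to -0.54, and *Cd14* in monocyte-like cells from -1.17 to -0.37. The number of genes with the same highest class in both libraries was 5 to 8. Few UMIs limit *Tlr9* and *Tlr7* in neutrophil-like cells and most of the 10 genes in T cell-like cells.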
